A study of Mus musculus with 28 samples.

Results

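The set described here holds the genes of Mediator and TFIID, the protein assemblies that carry signals from DNA-bound activators to RNA polymerase II at gene promoters. Members were the transcript clusters with 1 gene symbol that follows the Med or Taf naming pattern, with the brightest cluster kept for each gene; the rule uses no difference between groups. This gave 54 genes of the 19938 named genes on the array. Of these, 30 encode Mediator subunits and 16 encode TFIID subunits. The other 8 carry a Taf name but are not counted as TFIID: Taf1a, Taf1b, Taf1c and Taf1d belong to SL1, the promoter factor of RNA polymerase I; Taf5l and Taf6l belong to the SAGA coactivator; Taf15 is an RNA-binding protein of the FET family; and Taf7l2 is a copy similar to Taf7l.

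Mediator is built from a head and a middle module that contact the polymerase, a tail that many activators bind, the scaffold subunit Med14 that joins them, and a kinase module that docks reversibly. TFIID is formed by TBP and the TBP-associated factors (TAFs); it recognises the core promoter and seeds the preinitiation complex. CREB-binding protein (CBP), a histone acetyltransferase recruited by CREB and other activators, works at the same promoters, and in the hippocampus this route serves activity-dependent transcription and memory.

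The samples were hippocampi of 3-month-old female C57/DBA F1 hybrid mice, either wild-type or heterozygous for a cbp mutation (cbp+/-, littermates). Each of the 28 Affymetrix Mouse Gene 1.0 ST arrays was hybridised with a pool of 3 to 4 mice, prepared as independent biological replicates according to the labels. The 4 groups of each genotype were controls in the standard cage (5 arrays, replicates 1 and 2 labelled naive and 3 to 5 injected with DMSO/saline vehicle), mice given trichostatin A in the standard cage (3 arrays), vehicle-injected mice exposed to novelty (3 arrays), and mice given both (3 arrays). Trichostatin A (TSA), an inhibitor of histone deacetylases, was injected into the peritoneum at a dose of 2.4 mg/kg, 75 min before the hippocampus was removed. Novelty was 1 h in an unfamiliar box with objects, begun 15 min after the injection where TSA was given too. In bulk tissue, fewer cells of a type and less RNA per cell cannot be told apart. Signals are deposited log2 values from RMA normalization, which removes any shift shared by most transcripts, and they ran from 2.11 to 14.02 over all clusters.

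Arrays fell into 4 sets that no label names: the naive arrays form set 1, and vehicle controls 3, 4 and 5 deviate together with replicates 1, 2 and 3 of the other groups, as sets 2, 3 and 4. Sets 2 to 4 each hold 1 array of every group. These sets accounted for 95.6% of the variance of the first principal component, which held 34.5% of the total. The sets were drawn from these same values, so a high share follows in part from how they were chosen. For the same reason p-values with array set as a block may be too small. The counts and the members called are therefore given below both without a block and with array set as a block. Other members are given with the block, and the range of each group of them also without it. Markers of the choroid plexus, a neighbouring tissue, were raised on 3 arrays, with a mean log2 deviation of 1.24 in wild-type novelty TSA replicate 1, 1.39 in cbp+/- control replicate 3 and 0.99 in cbp+/- TSA replicate 1. All 5 pyramidal neuron markers and all 4 dentate granule markers stood above the array median on every array. Crebbp, the gene that encodes CBP, had log2 signals of 9.29 ± 0.18 (SD, n = 5) in wild-type controls and 9.40 ± 0.23 (SD, n = 5) in cbp+/- controls; averaged over the 4 conditions it was 0.21 ± 0.054 (SE) higher in cbp+/- with the block (limma, adjusted p = 0.066). The files do not place its probes relative to the mutation, so this value does not check the genotype labels.

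Most members were brighter than the median gene, which is a measure of signal and not a detection call. The mean signal of 47 of the 54 lay above the median of all genes, 6.1. Med11 and Med22 lay only slightly above it, with means of 6.33 and 6.25 (percentiles 53.4 and 52.2 of all genes). The lowest were Taf7l and Taf7l2, with means of 3.31 and 3.88 (percentiles 5.2 and 15.0 of all genes). Several clusters carry the same symbol for 4 members (2 each for Med4, Taf10 and Taf13, and 9 for Taf1d), which can lie on near-identical copies, and the values of these 4 are uncertain for that reason. Taf9 and Med20 are also named on a cluster shared with another gene (Ak6 and Usp49), which the rule left out.

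The first question was whether a histone deacetylase inhibitor alters the RNA of the initiation machinery itself within 75 min. Averaged over the 4 backgrounds (each genotype, in the cage or with novelty), 2 members passed an adjusted p of 0.05 in limma without a block: Med11 fell and Med22 rose. Both are small subunits of the Mediator head, where they bind each other. Of all genes tested 132 were called (0.662%), 89 higher (0.446%) and 43 lower (0.216%). The share of higher calls among all genes was 67.4%, but 56.5% with arrays centred on their medians and 57.7% with quantile normalization repeated. With array set as a block, which in effect compares TSA with vehicle within each set, 4 members were called against 899 genes (4.51%; 2.66% higher and 1.85% lower). Med11 and Taf1b fell, and Med22 and Taf4 rose. The members' median change was -0.006 without the block, against 0.0068 for all genes, with 25 members positive and 29 negative. At an unadjusted p under 0.05 there were 8 members (14.8%) against 8.73% of all genes without the block, and 16 members (29.6%) against 15.9% with it.

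Med11 (chromosome 11) encodes a head subunit that forms a helical bundle with Med22. In wild-type controls its log2 signal was 6.28, 6.40, 6.32, 6.52 and 6.34 in replicates 1 to 5, and in wild-type TSA arrays it was 5.88, 5.95 and 6.36. In wild-type novelty arrays it was 6.33, 6.56 and 6.88, and with novelty and TSA 5.85, 5.89 and 6.49. In both wild-type backgrounds the third TSA array, which belongs to set 4, lay within the range of the arrays without TSA. In cbp+/- controls Med11 read 6.39, 6.36, 6.39, 6.82 and 6.63, and in cbp+/- TSA arrays 5.97, 5.91 and 6.35. In cbp+/- novelty arrays it read 6.33, 6.78 and 6.49, and with TSA 6.23, 6.28 and 6.26. In both cbp+/- backgrounds every TSA array lay below every array without TSA, while in both wild-type backgrounds the groups overlapped.

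Averaged over backgrounds, Med11 changed by -0.39 ± 0.081 (SE, limma, adjusted p = 0.0227), that is to 0.765 of its level without TSA. With the block the change was -0.42 ± 0.064 (adjusted p = 0.000287). It was -0.36 within set 2, -0.66 within set 3 and -0.22 within set 4, and in 11 of 12 pairs of arrays from the same set and background the TSA array was the lower. Without the block the call was lost when wild-type TSA replicate 1 (-0.36, adjusted p = 0.0508), wild-type novelty TSA replicate 1 (-0.36, 0.0510) or 2 (-0.36, 0.0538), or cbp+/- TSA replicate 2 (-0.37, 0.0569) was left out. It was also lost without the 3 arrays high in choroid plexus markers (-0.35, adjusted p = 0.0946) and with vehicle controls only (-0.42, adjusted p = 0.073). With the block it passed in all 33 alternatives run, adjusted p at most 0.0344.

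Med22 (chromosome 2) moved the other way. Its log2 signal was 5.81, 5.78, 6.13, 6.04 and 6.21 in wild-type controls and 6.33, 6.38 and 6.43 in wild-type TSA arrays. In wild-type novelty arrays it was 6.21, 6.15 and 6.44, and with TSA 6.47, 6.40 and 6.48. In cbp+/- controls it was 6.09, 5.95, 6.39, 6.16 and 6.24, and in cbp+/- TSA arrays 6.53, 6.26 and 6.39. In cbp+/- novelty arrays it was 6.32, 5.81 and 6.10, and with TSA 6.67, 6.34 and 6.40. The groups did not overlap in wild-type cage mice and in cbp+/- novelty mice. Of the 4 lowest Med22 signals, 3 came from naive arrays and the other from cbp+/- novelty replicate 2.

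The averaged change of Med22 was 0.30 ± 0.064 (SE, limma, adjusted p = 0.0253), a 1.23-fold rise, and with the block 0.24 ± 0.045 (adjusted p = 0.00206), a 1.18-fold rise. It was 0.24, 0.30 and 0.18 within sets 2, 3 and 4, and the TSA array was the higher in 12 of 12 same-set pairs. Without the block the call was lost without wild-type novelty replicate 2 (0.28, adjusted p = 0.0564), cbp+/- TSA replicate 1 (0.28, 0.0554), cbp+/- novelty replicate 2 (0.26, 0.0515) or cbp+/- novelty TSA replicate 1 (0.27, 0.0639). It was also lost without the arrays high in choroid plexus markers (0.29, adjusted p = 0.0620) and with vehicle controls only (0.24, adjusted p = 0.160). With the block it passed in 32 of 33 alternatives, the exception being the fit without set 3 (0.21, adjusted p = 0.0793). None of the choroid plexus markers was called for TSA, with or without the block.

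Because the pair moved in opposite directions, the difference of their log2 signals within an array was taken after these values were seen, and it is given as a description. Its size also reflects the brightness of the probes, so only its movement can be read. Med22 minus Med11 ran from -0.0044 to 0.62 (median 0.39) over the 12 TSA arrays and from -0.96 to -0.0003 (median -0.40) over the 16 arrays without TSA. In 11 of the 12 TSA arrays it exceeded every array without TSA.

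**Figure D1:**
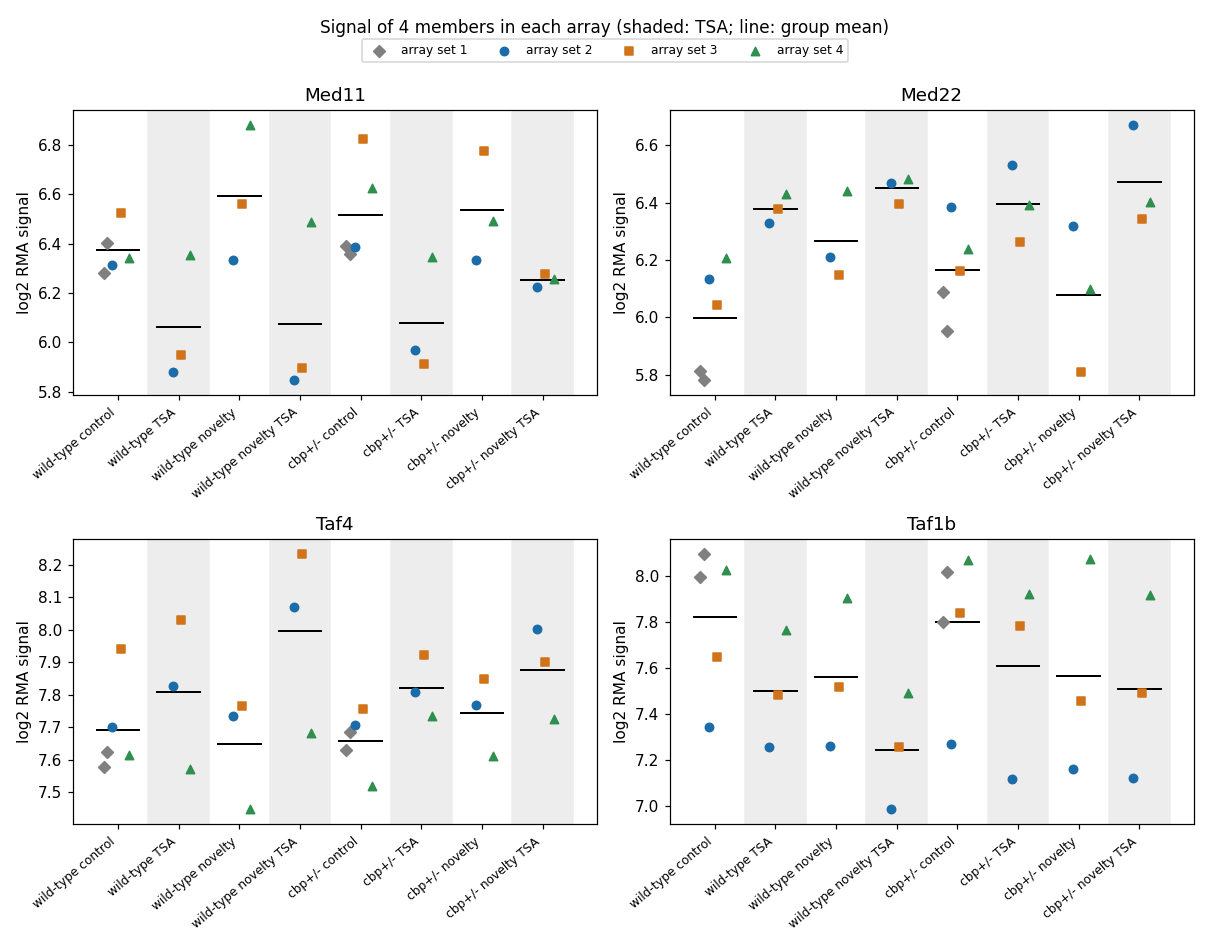
Log2 RMA signal (vertical axis) of Med11, Med22, Taf4 and Taf1b in each of the 28 arrays, by group (horizontal axis), with the group mean as a line, TSA groups shaded and array sets marked by symbol. Med11 is lower and Med22 higher under TSA in nearly every set, while Taf1b is spread mainly by set, with set 2 lowest at a mean of 7.19 and set 4 at 7.90.

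The sequences just upstream of both genes are shown because these are the 2 members whose change was called without a block. They are RefSeq windows of GRCm38.p6, matched by gene, read 5′ to 3′ on the gene's strand and ending at the base before the annotated start. For Med22 only the bases between it and Rpl7a, a neighbouring ribosomal protein gene, are printed.
Med11 (chr11:70451668-70451917, plus strand): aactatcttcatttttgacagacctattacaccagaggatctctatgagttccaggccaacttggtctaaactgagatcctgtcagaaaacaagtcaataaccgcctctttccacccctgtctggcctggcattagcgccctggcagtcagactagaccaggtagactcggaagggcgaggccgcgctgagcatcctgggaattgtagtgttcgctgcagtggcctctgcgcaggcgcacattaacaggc
Med22 (chr2:26910643-26910684, minus strand): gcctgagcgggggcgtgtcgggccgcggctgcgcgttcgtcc
All letters are in lower case because neither stretch holds any of the 7 motifs searched on both strands: the TATA box (TATAAA), the GC box (GGGCGG), the CCAAT box (CCAAT), an ETS site (CCGGAAG), the full cAMP response element or CRE (TGACGTCA), its core (TGACG, part of the full CRE) and the E-box (CACGTG). The whole 250-base window of Med22 held 2 GC boxes and 1 CRE core, all where it overlaps Rpl7a, and its G and C content was 65.2% against 52.8% for Med11. Rpl7a itself changed by -0.047 with TSA. The other measured neighbours within 10000 bases were Surf6 (-0.003), Surf1 (0.044), Surf2 (0.19) and Surf4 (0.17) for Med22, and Cxcl16 (0.081) and Zmynd15 (-0.063) for Med11, all without a block.

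Such windows were found for 47 of the 54 members, 58 windows in all. The GC box occurred in 60.3% of them, against 32.7% of all 32851 windows of the same length. The ETS site occurred in 24.1% against 6.91%, the CRE core in 32.8% against 17.8% and the E-box in 10.3% against 6.02%. The CCAAT box (36.2% against 33.8%) and the TATA box (13.8% against 12.4%) were near their share in all windows. Member windows were also richer in G and C, with a median content of 56.4% against 52.4% for all windows. The part of base composition in these motif shares was not tested. Every window was counted, so members with several windows weigh more. The full CRE, the element CREB binds, was found in 2 member windows, those of Med21 and Taf11, or 3.45% against 1.55%. A match is a string of letters and not evidence of binding.

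Of 8 head members 1 rose and 1 fell, and the median change was -0.025 with the block and -0.045 without it. Med17, around which the head is organised, had -0.049 ± 0.036 (SE) with the block. Med18 and Med20, which form the movable jaw, had 0.094 ± 0.069 and 0.019 ± 0.050. Med6, Med8 and Med19 had -0.12 ± 0.055, -0.023 ± 0.053 and -0.028 ± 0.048. Med6 was higher with TSA in 2 of 12 same-set pairs. None of these 6 passed the threshold, and without the block they ran from -0.15 (Med6) to 0.12 (Med18).

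None of the 8 middle subunits was called, with values from -0.17 (Med21) to 0.21 (Med26) without the block. Med26, through which Mediator meets elongation factors, had the highest value there, 0.20 ± 0.067 (SE) with the block (limma, adjusted p = 0.0828). Its cbp+/- cage arrays with TSA did not overlap those without. The Med26 change was uneven between sets, at 0.48, 0.19 and -0.057 within sets 2, 3 and 4. Med10 reached 0.14 ± 0.044 (adjusted p = 0.065), higher with TSA in 11 of 12 same-set pairs. Med21 and Med7, which form the hinge of the middle module, had -0.12 ± 0.066 and 0.096 ± 0.053. Med1, the docking site of nuclear receptors, had -0.021 ± 0.056, and Med9, Med4 and Med31 had -0.10 ± 0.042, 0.018 ± 0.048 and -0.065 ± 0.061. The scaffold Med14 had -0.048 ± 0.045.

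None of the 9 tail subunits was called either, with values from -0.13 (Med23) to 0.25 (Med25) without the block. Med25, bound by acidic activators, had 0.17 ± 0.055 (SE) with the block (adjusted p = 0.0717; 11 of 12 same-set pairs higher), and Med23, a target of Elk1, had -0.14 ± 0.050 (adjusted p = 0.128). Med15 and Med16 had -0.031 ± 0.039 and -0.099 ± 0.049, and Med24, Med27, Med28, Med29 and Med30 lay between -0.043 and 0.012. The 4 kinase module members, Med12, Med12l, Med13 and Med13l, lay between -0.035 and 0.053, and between -0.041 and 0.069 without the block, with none called.

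Among the 12 subunits found in TFIID alone, Taf4 was the member called with the block. Taf4 is a central TFIID subunit that pairs with Taf12 and is a known contact of CREB. Its log2 signal was 7.58, 7.62, 7.70, 7.94 and 7.61 in wild-type controls and 7.83, 8.03 and 7.57 with TSA. In wild-type novelty arrays it was 7.73, 7.77 and 7.45, and with TSA 8.07, 8.23 and 7.68. In cbp+/- controls it was 7.63, 7.68, 7.71, 7.76 and 7.52, and with TSA 7.81, 7.92 and 7.73. In cbp+/- novelty arrays it was 7.77, 7.85 and 7.61, and with TSA 8.001, 7.90 and 7.72. The groups overlapped in all 4 backgrounds. The set 4 array was the lowest of every group except wild-type controls, where a naive array was lower still.

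Within sets the pattern was tighter. Taf4 was higher with TSA in 11 of 12 same-set pairs, by 0.20, 0.19 and 0.13 in sets 2, 3 and 4. With the block the change was 0.17 ± 0.039 (SE, limma, adjusted p = 0.0102), and without it 0.19 ± 0.063 (adjusted p = 0.243). With the block it kept the call in 31 of 33 alternatives; the adjusted p was 0.168 without set 2 and 0.0987 without set 3. Its paralog Taf4b had -0.115 ± 0.046 with the block (adjusted p = 0.188), with the TSA arrays below the untreated ones in cbp+/- cage mice and in wild-type novelty mice. The TSA change of Taf4 minus that of Taf4b was 0.29 with the block (95% interval 0.17 to 0.41).

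The remaining TFIID-only subunits did not pass; without the block they ran from -0.155 (Taf8) to 0.13 (Taf3). Taf8, which pairs with Taf10, came closest at -0.17 ± 0.049 (SE, adjusted p = 0.0534 with the block), with the TSA array lower in 9 of 12 same-set pairs. Taf1, the largest subunit, which carries bromodomains, had -0.083 ± 0.049, and its partner Taf7 had -0.065 ± 0.061. Taf3, which reads methylated histone H3, had 0.11 ± 0.052, and Taf5 and Taf6, of the TFIID core, had -0.099 ± 0.053 and 0.030 ± 0.046. Taf5 arrays of wild-type novelty mice with TSA lay below those without. Taf2, Taf11, Taf13 and Taf7l lay between -0.045 and 0.092. The 4 subunits shared with SAGA had -0.17 ± 0.064 (Taf9b), -0.085 ± 0.052 (Taf12), -0.059 ± 0.067 (Taf9) and 0.080 ± 0.066 (Taf10), and none was called; without the block they ran from -0.21 (Taf9b) to 0.15 (Taf10). Without the block the brighter Taf10 cluster had 0.15 and the other one 0.004.

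Among the Taf-named genes outside TFIID, Taf1b was called with the block. It encodes the SL1 subunit related to TFIIB that acts in ribosomal RNA transcription. Its signal in wild-type controls was 7.99, 8.09, 7.34, 7.65 and 8.03, and with TSA 7.26, 7.48 and 7.77. In wild-type novelty arrays it was 7.26, 7.52 and 7.90, and with TSA 6.99, 7.26 and 7.49. In cbp+/- controls it was 7.80, 8.02, 7.27, 7.84 and 8.07, with TSA 7.12, 7.78 and 7.92, with novelty 7.16, 7.46 and 8.07, and with novelty and TSA 7.12, 7.49 and 7.92. In every group the set 2 array was the lowest, and TSA and untreated arrays overlapped in all 4 backgrounds.

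In 11 of 12 same-set pairs Taf1b was lower with TSA, with mean changes of -0.14, -0.11 and -0.245 in sets 2, 3 and 4. The change was -0.17 ± 0.047 (SE, limma, adjusted p = 0.0426) with the block and -0.22 ± 0.13 (adjusted p = 0.711) without it. This call is the least firm of the 4. It passed in 12 of 33 alternatives, and all 12 were among the 28 fits that left out 1 array. Those 28 fits gave adjusted p from 0.0211 to 0.0955 and values from -0.19 to -0.14. The call failed in every other alternative with the block, with adjusted p from 0.0505 (vehicle controls only) to 0.322 (without set 4). The arrays whose removal ended it were replicates 1 and 3 of wild-type controls, 2 and 3 of wild-type TSA, 1 and 3 of wild-type novelty, 2 and 3 of wild-type novelty TSA, 4 and 5 of cbp+/- controls, 1 and 3 of cbp+/- TSA, 1 and 3 of cbp+/- novelty, and 1 and 2 of cbp+/- novelty TSA. Of the other SL1 genes, Taf1a had 0.17 ± 0.060 (adjusted p = 0.109), and Taf1c and Taf1d had 0.10 ± 0.059 and 0.035 ± 0.072. Taf6l and Taf15 had 0.16 ± 0.052 (adjusted p = 0.0845) and -0.15 ± 0.050 (0.0814), and Taf5l and Taf7l2 had -0.062 ± 0.055 and 0.031 ± 0.041. Without the block these 7 ran from -0.13 (Taf15) to 0.20 (Taf6l).

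**Figure D2:**
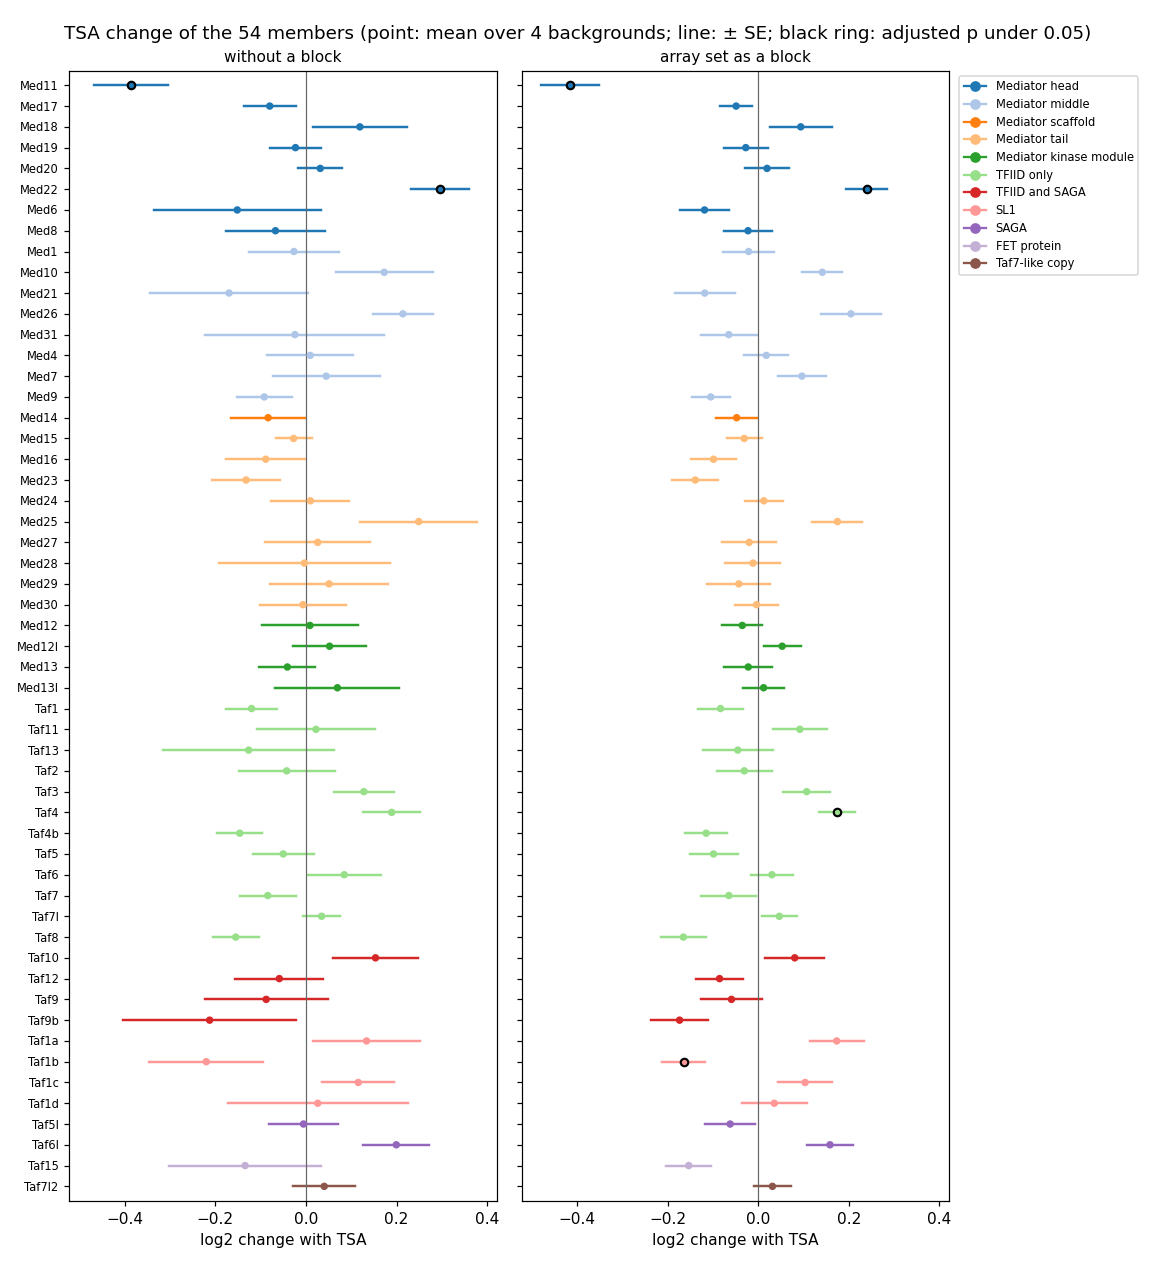
TSA change (log2, horizontal axis; point with ± SE line) of each of the 54 members, ordered and coloured by module, without a block (left) and with array set as a block (right); a black ring marks an adjusted p under 0.05. Med11 and Med22 are ringed on both sides, Taf4 and Taf1b on the right only, and the other 50 members lie between -0.17 and 0.20 with the block.

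The direction of the TSA change was the same in all 4 backgrounds for 22 of the 54 members, against 26.5% of all genes. It was the same within sets 2, 3 and 4 for 28 of the 54, against 36.9% of all genes. Both held for 17 members, and the share of all genes for which both hold was not computed. The 4 members called with the block are among the 17. A call on the averaged change favours the same sign throughout, so their presence there adds no support. Arrays of the TSA and untreated groups did not overlap for 1 member in wild-type cage mice (Med22; 2.36% of all genes), 3 in cbp+/- cage mice (Med26 higher, Med11 and Taf4b lower; 2.85%), 2 in wild-type novelty mice (Taf4b and Taf5 lower; 5.76%) and 2 in cbp+/- novelty mice (Med22 higher, Med11 lower; 5.21%). Counts of this size are near the background shares, so they single out no background.

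Tested in 1 background at a time, no member was called by limma. Of all genes 0% were called in each background without the block, and 0.0401%, 0.0251%, 0.0702% and 0.0201% with it, in wild-type cage, cbp+/- cage, wild-type novelty and cbp+/- novelty mice. At an unadjusted p under 0.05 there were 3, 1, 3 and 1 members without the block (5.56%, 1.85%, 5.56% and 1.85%), against 5.17%, 2.45%, 3.26% and 1.78% of all genes. With the block there were 6, 3, 6 and 4 members (11.1%, 5.56%, 11.1% and 7.41%), against 8.20%, 6.61%, 11.3% and 6.10% of all genes. Med11 had -0.37 ± 0.12, -0.50 ± 0.12, -0.51 ± 0.13 and -0.28 ± 0.13 (SE) with the block in these 4 backgrounds, and Med22 had 0.27 ± 0.085, 0.12 ± 0.085, 0.18 ± 0.090 and 0.39 ± 0.090. With array weights 11 of the 54 members and 3872 of the 19938 genes were called in wild-type cage mice. The members were thus called about as often as all genes.

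Whether TSA acted alike in both genotypes or housings was tested as an interaction. No member and 0% of all genes were called for TSA by genotype or for TSA by novelty, with or without the block. At an unadjusted p under 0.05 without the block there were 0 members in either test, against 2.31% and 1.24% of all genes. With the block there was 1 member for TSA by genotype (1.85%, against 8.09% of all genes). For TSA by novelty there were 2 (3.70%, against 2.83%). With the block the TSA change in cbp+/- minus that in wild-type mice was 0.052 for Med11 (95% interval -0.20 to 0.30), 0.031 for Med22 (-0.15 to 0.21), -0.085 for Taf4 (-0.24 to 0.069) and 0.19 for Taf1b (0.010 to 0.38; adjusted p = 0.612). The intervals for Med22 and Taf4 are wide against the changes themselves, so that TSA acted alike in both genotypes was not shown. The TSA change with novelty minus that in the cage was 0.035 (-0.23 to 0.30) for Med11, 0.097 (-0.089 to 0.28) for Med22, 0.13 (-0.033 to 0.29) for Taf4 and -0.039 (-0.23 to 0.15) for Taf1b.

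**Figure D3:**
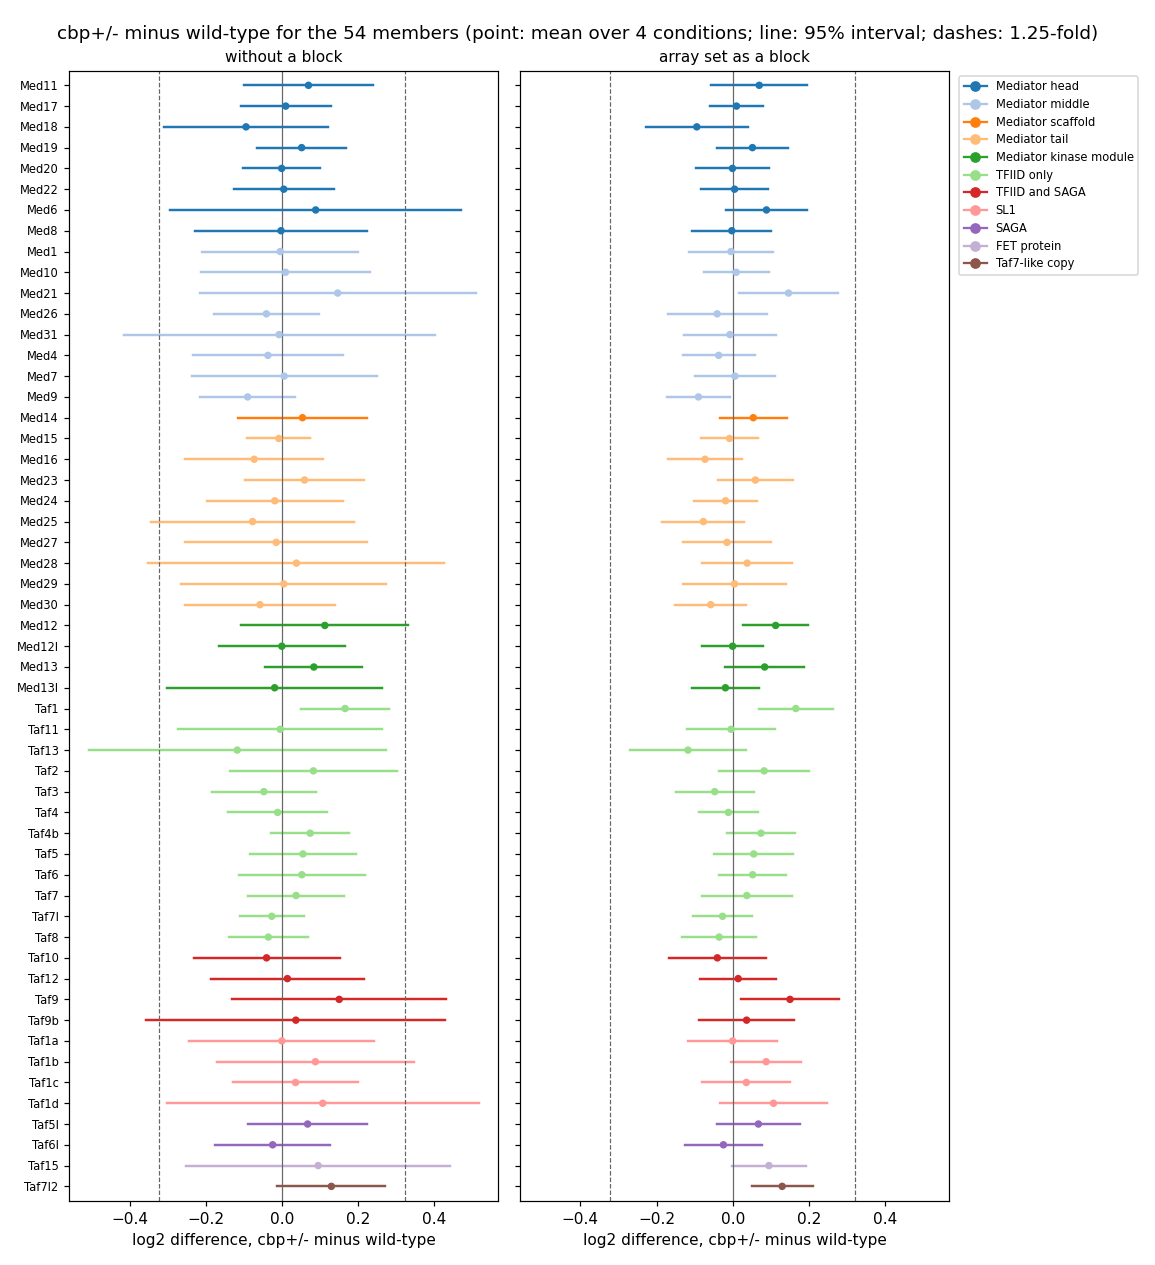
Difference between genotypes (log2, cbp+/- minus wild-type, horizontal axis) of the 54 members averaged over the 4 conditions, with 95% intervals, without a block (left) and with array set as a block (right); dashed lines mark 0.322 in either direction. No member is called, and with the block all 54 intervals lie between the dashed lines.

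The second question was whether mice with 1 working cbp allele carry a different amount of RNA for these complexes. No member was called for genotype averaged over the 4 conditions, with or without the block. Without the block 0% of all genes were called (518 genes and 1 member, Taf1, had an unadjusted p under 0.05), and with it 132 were (0.662%), 100 of them lower in cbp+/-. With the block the 95% interval of every one of the 54 members lay within 0.322 (log2) of 0 in either direction, and without it that held for 42. At an unadjusted p under 0.05 with the block there were 6 members (11.1%), against 11.9% of all genes.

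Taf1 had the smallest p. Its log2 signal was 8.04 (median; 7.80 to 8.40) over 14 wild-type arrays and 8.25 (8.01 to 8.37) over 14 cbp+/- arrays, so the ranges overlapped. The difference was 0.17 ± 0.047 (SE, limma with the block, adjusted p = 0.112; without it 1.00). It was 0.16, 0.23 and 0.17 within sets 2, 3 and 4 and -0.069 within the naive set, and cbp+/- was higher in 10 of 12 same-set pairs. Taf7l2, a dim cluster, had 0.13 ± 0.039 (adjusted p = 0.136; 10 of 12 pairs higher). Taf4b had 0.074 ± 0.044 (adjusted p = 0.547) and was higher in cbp+/- in 12 of 12 pairs of sets 2 to 4, while the naive arrays gave -0.14. Med13 had 0.084 ± 0.051 (10 of 12 pairs) and Med9 had -0.090 ± 0.040 (higher in 5 of 12 pairs). Med12, a kinase module subunit whose paralog Med12l had -0.0004 ± 0.039, had 0.11 ± 0.042. Taf9 had 0.15 ± 0.063. With the block the 54 members ran from -0.117 (Taf13) to 0.166 (Taf1), but the dimmer Taf13 cluster had 0.051.

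In single conditions no member was called for genotype. Of all genes 0% were called in each condition without the block, and with it 0.00502% in novelty without TSA and 0% in the other 3. Marker genes moved with genotype in the blocked fit: Wfs1 (pyramidal neurons of CA1) by -0.41 ± 0.053, Gfap (astrocytes) by -0.28 ± 0.057 and Dcn (meninges and fibroblasts) by -0.31 ± 0.044. Each is the 1 called marker of its list of 5, 5 and 8. In the pyramidal list 4 of 5 were negative (median -0.017, highest Neurod6 at 0.20), in the astrocyte list 5 of 5 (median -0.108), and in the fibroblast list 3 of 8 (median 0.032, highest Igf2 at 0.32). Their part in the members' values was not tested.

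Novelty was the remaining factor, and here too no member was called. Without the block 38 genes were (0.191%), and with it 95 (0.476%); at an unadjusted p under 0.05 with the block there were 8 members (14.8%), against 8.21% of all genes. Med29, a tail subunit, had the highest averaged value, 0.28 ± 0.13 (SE) without the block and 0.18 ± 0.069 with it (adjusted p = 0.414), and ranged from 6.35 to 7.08 over novelty arrays and from 5.81 to 7.02 over cage arrays. Taf5 had 0.16 ± 0.067 without and 0.11 ± 0.053 with the block, Taf8 0.089 ± 0.051 and 0.079 ± 0.049, and Taf5l 0.11 ± 0.076 and 0.050 ± 0.055. With the block Taf11 had 0.17, and Med14 had 0.12 (limma, adjusted p = 0.386). All members with the block ran from -0.156 (Taf1b) to 0.182 (Med29). Taf1b, called lower with TSA in the blocked fit, had -0.16 ± 0.047 with novelty (adjusted p = 0.194). The TSA and novelty comparisons draw on the same arrays, those of all groups. How far the TSA and novelty values of Taf1b depend on each other was not tested.

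**Figure D4:**
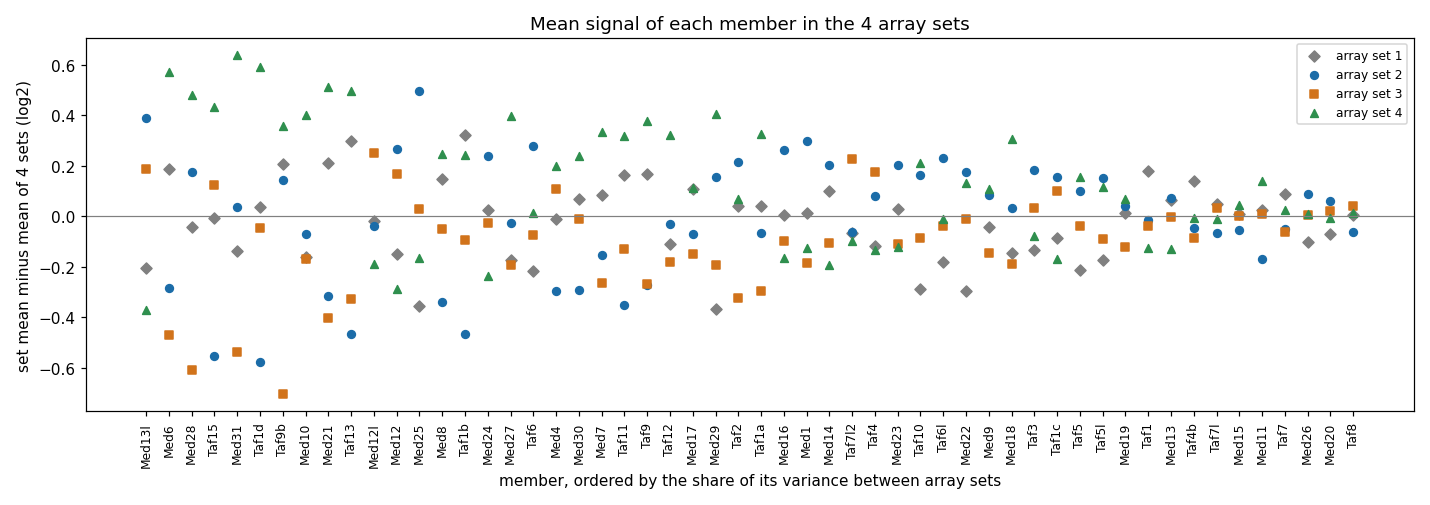
Mean log2 signal of each member in the 4 array sets, as the deviation from the mean of the sets (vertical axis), with members ordered by the share of their variance that lies between sets. At the left, Med13l, Med6, Med28 and Taf15 differ between sets by more than the TSA change of any member, and at the right the set means of Med26 run from 6.35 to 6.55, those of Med20 from 6.53 to 6.66 and those of Taf8 from 6.31 to 6.41.

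Most of the members' variance lay between array sets. Array set accounted for a median of 68.6% of the members' variance, against 43.8% over all genes, and for over 50% in 39 of the 54 (72.2%, against 43.4% of all genes). Med13l was the extreme: 93.6% lay between sets, with means of 8.18, 8.78, 8.57 and 8.02 in sets 1 to 4, while for its paralog Med13 the share was 33.1%. Med6 (91.2%), Med28 (90.8%), Taf15 (89.8%) and Med31 (86.8%) followed. Med31 averaged 7.08 in set 3 and 8.25 in set 4. Set 4 was highest for 27 members and set 2 for 18. Med11 (19.0%), Taf7 (13.7%), Med26 (10.9%), Med20 (10.7%) and Taf8 (8.4%) depended least on the set. For Med22, Taf4 and Taf1b the shares were 50.6%, 56.9% and 80.2%. Set 1 holds only naive cage controls, so these shares also take in differences of injection, TSA and novelty between set 1 and the others.

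Several subunits have a paralog, and for Taf5 and Taf6 it belongs to SAGA and not to TFIID. Besides Taf4 and Taf4b, the TSA change differed for Taf6, of TFIID, and Taf6l, its SAGA counterpart, by -0.13 with the block (95% interval -0.25 to -0.006; Taf6 minus Taf6l). Intervals are not adjusted for the 7 pairs compared. Those of the other 5 pairs included 0: -0.088 (-0.19 to 0.017) for Med12 and Med12l, -0.034 (-0.13 to 0.060) for Med13 and Med13l, -0.037 (-0.19 to 0.12) for Taf5 and Taf5l, -0.11 (-0.28 to 0.056) for Taf7 and Taf7l, and 0.11 (-0.095 to 0.32) for Taf9 and Taf9b.

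Genes that work with these complexes were read from lists of partners, against 4.51% of all genes called with the block and 0.662% without it. Of all the partners, 1 was called without the block, so the counts that follow rest on the block. Of the 7 kinase and TBP partners none was called for TSA with the block; Tbp, which binds the TATA box inside TFIID, had 0.11 ± 0.053 (SE), and Cdk8, Cdk19 and Ccnc, the kinases and cyclin of the Mediator kinase module, had 0.059 ± 0.047, 0.034 ± 0.058 and 0.039 ± 0.068. Of 17 general transcription factors 2 fell, both encoding TFIIA: Gtf2a1 by 0.19 ± 0.043 (adjusted p = 0.0111) and Gtf2a2 by 0.25 ± 0.074 (0.0463). Without the block they had -0.23 (adjusted p = 0.166) and -0.30 (0.804). Of 13 RNA polymerase II subunits 1 fell, Polr2a, the largest, by 0.19 ± 0.055 (0.0452); without the block it had -0.0905 (adjusted p = 0.971).

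Among 20 pause release factors 2 fell and 3 rose with the block. Mepce and Larp7, which protect and stabilise the 7SK RNA that holds P-TEFb inactive, fell by 0.23 ± 0.044 (limma, adjusted p = 0.00224) and 0.28 ± 0.046 (0.000635). Mepce was also called without the block, at -0.25 ± 0.051 (adjusted p = 0.0190), the only partner gene that was. Aff1, Ell and Ell2, subunits of the super elongation complex, rose by 0.26 ± 0.062 (0.0136), 0.20 ± 0.054 (0.0348) and 0.16 ± 0.046 (0.0401). Without the block Larp7 had -0.32 (adjusted p = 0.285), Aff1 0.28 (0.101), Ell 0.23 (0.127) and Ell2 0.11 (0.9075). Hexim1, which holds P-TEFb on 7SK, had -0.018 ± 0.066, and Cdk9, its kinase, -0.006 ± 0.066. Of 16 SAGA partners 3 fell: Sgf29 by 0.23 ± 0.063, Atxn7l2 by 0.20 ± 0.059 and Tada3 by 0.17 ± 0.047. Without the block none of the 16 was called, and these 3 had -0.16, -0.205 and -0.13. Neurod6, a pyramidal neuron marker, was also lower with TSA in this fit (-0.26 ± 0.068, adjusted p = 0.0268), while the other 4 pyramidal markers were positive (up to 0.051 for Fibcd1; list median 0.029), and its part in these values was not tested.

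**Figure D5:**
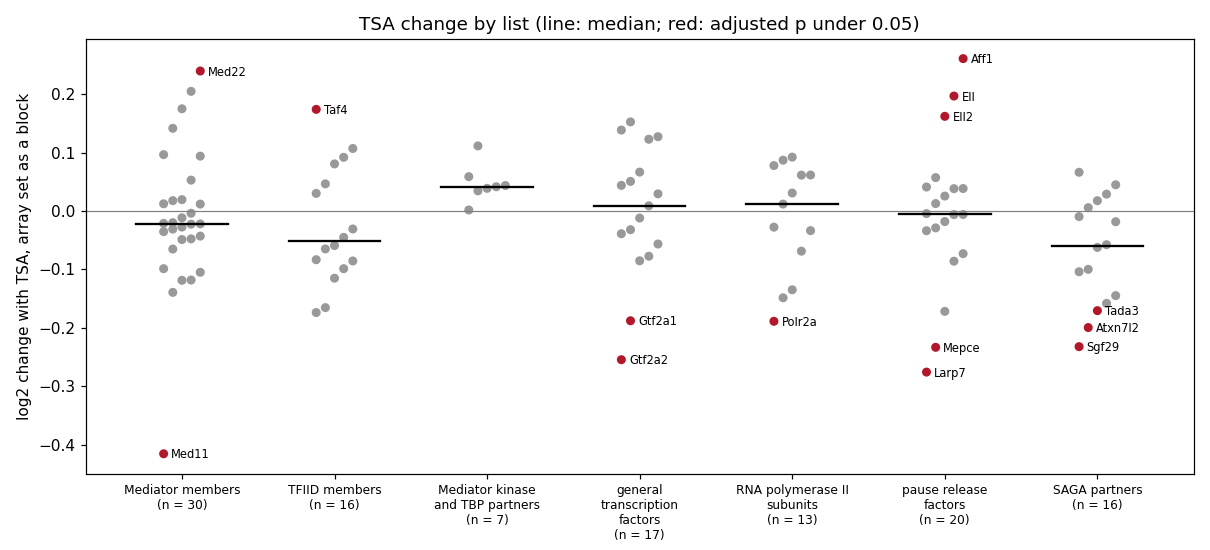
TSA change with array set as a block (log2, vertical axis) of Mediator and TFIID members and of 5 partner lists, with the list median as a line and genes with an adjusted p under 0.05 named in red. List medians lie between -0.060 and 0.041, and the named genes stand apart in both directions.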

How the data were processed

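Total RNA from pooled hippocampi was hybridised to Affymetrix arrays (28 arrays, 8 groups of 3 to 5). The deposited values are log2 signals for 35556 transcript clusters; per the labels' protocols the authors processed them in GeneSpring GX 11.0, and the submitters' processing notes name RMA. No label or header used here gives the RMA version, genome build or annotation. The labels give 3 to 4 mice per pool, and the extraction protocol 4. The platform table names 1 gene for 21789 clusters, several for 1621 and none for 12146; the brightest cluster was kept for each of 19938 genes.

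All arrays entered 1 limma fit (3.58.1, R 4.3.3) of 8 group means with eBayes, and p-values were adjusted by Benjamini-Hochberg over all 19938 genes, with calls at 0.05. The code was tested on simulated data. The number of arrays limits the precision. The rule for members, the lists and the array sets were written with earlier results of these data known. Array sets follow how arrays deviate together (correlations of 0.328 to 0.802 within and -0.625 to 0.434 between sets). Same-numbered arrays correlated at 0.523 to 0.802 among the TSA and novelty groups (45 pairs) but at -0.583 to 0.697 where a control group was involved (41 pairs), so label numbers do not pair TSA arrays with cage controls. Genes named in the text were the members called in any comparison, or otherwise the 5 with the smallest p without the block. Both members of each paralog pair and called partners were named as well. Other members are given for TSA, so that all are accounted for there, while for genotype and novelty most are covered by ranges and counts. Supt4a and Gtf2h2 had no cluster of their own and are not analysed here.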

Additional observations from a re-analysis of the deposited data

Results flagged for a closer look

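A single array stood far from the rest in 8 of 108 tests, made for all 54 members in both control groups of 5 arrays; chance flags about 1 in 20, or 5.4 here. On cbp+/- control replicate 3, which is also high in choroid plexus markers, Taf6l read 6.62 (its 4 fellow controls ran from 5.97 to 6.13), Taf7 read 5.6 (5.35 to 5.41) and Med26 read 6.28 (6.37 to 6.38). Med10 read 9.33 on cbp+/- control replicate 5 (8.59 to 8.79 on the others), and Med19 read 7.78 on cbp+/- control replicate 4 (7.99 to 8.05). Among wild-type controls, Med16 read 7.96 (7.55 to 7.67) and Taf11 read 6.93 (7.48 to 7.66) on replicate 3, and Taf9b read 8.04 (8.63 to 8.85) on replicate 4. These tests took no account of array set, although the 5 controls come from 4 sets. Several readings lay near the mean of their own set: Med10 9.31 (set 4), Med16 7.94 (set 2), Med19 7.77 and Taf9b 7.89 (set 3). The set 2 means were 6.49 for Taf6l and 7.16 for Taf11, the highest and lowest of the sets. For Taf7 and Med26 the set 2 means were 5.33 and 6.55, further from the readings. These means include the TSA arrays of the set. For Med26 the untreated set 2 arrays read 6.33 (wild-type control), 6.27 (wild-type novelty), 6.28 (cbp+/- control, the flagged array) and 6.36 (cbp+/- novelty). The flagged Med26 reading thus lay within the range of the untreated arrays of its set.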

How the results depend on the processing

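For TSA averaged over backgrounds, 2 members were called; the count was 4 with array set as a block, 0 with vehicle controls only (48 genes in all), 0 without the arrays high in choroid plexus markers (87 genes), 1 without array set 3 and 4 without array set 4 (both with the block), and 1 to 2 when single arrays were left out. With the label number as a replicate block it was 3, with Taf4 added (0.20, adjusted p = 0.0388) and 567 genes in all; the numbers pair the arrays of the TSA and novelty groups but not the controls. Array weights gave 3 members and 461 genes for the average. In the wild-type cage they gave 11 of the 54 members and 3872 of the 19938 genes, close to the same share. The blocked count of 4 became 2 without array set 2 (247 genes) and 1 without array set 3 (288 genes). It was 3 to 7 without single arrays (585 to 953 genes), with 7 when cbp+/- novelty TSA replicate 3 was left out (943 genes). All-gene counts with the block ranged down to 247 without set 2. The novelty difference of Taf5l reversed to -0.01 (-0.0082) without the choroid-high arrays with the block and to -0.04 (-0.0423) without set 2 with the block. The causes were not tested. The choroid exclusion with the block, and single arrays left out with the block, were chosen after seeing the data. Counts for the other comparisons stayed at 0 in every other alternative run.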
